A study of Mus musculus with 4 samples.

Results

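The mitochondrial protein import machinery was taken as the genes of a pooled knockout screen whose symbols begin with Tomm or Timm and a digit, together with Timmdc1, Pam16, Dnajc19, Grpel1, Grpel2, Hspa9, Samm50, Mtx1, Mtx2, Chchd4 and Gfer. The rule found 35 of the 20380 genes in the authors' deposited table. The screened cells were E14 mouse embryonic stem cells, an established line, with the genotype MERVL-tdTomato, in which a red fluorescent protein reports the activity of MERVL, an endogenous retrovirus that is switched on in the 2-cell embryo and in rare cultured cells. All cells received a lentiCRISPRv2 library of 130209 guides against 20611 genes, were given polybrene at 4 ug/mL during a 24 h transduction and were selected with puromycin at 2 ug/mL for 48 h. At day 5 about 500000 reporter-positive cells were sorted from a pool that began as about 130000000 transduced cells. The 4 guide libraries comprise 2 from MERVL-positive cells and 2 from total cells. Their titles call them sequencing repeats and name no separate cultures, so the deposited p-values may measure technical spread alone.

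Each gene has 1 log2 fold change from the authors' single comparison of both groups. Separate values for the libraries are not in that table, so no gene has a spread between libraries and depth per library is unknown. The sort gave about 3.84 cells per library guide, a number that limits what any single guide can show. The numerator of the fold change is not stated in the authors' deposited table. A value above 0 is taken to mean that guides were more abundant in MERVL-positive than in total cells, a likely reading that the files do not settle. It rests on the study's title, which links loss of Ints7 to MERVL activity, and on the rank of Ints7 per the authors' deposited table, 157 of 22510 entries for positive change and 18586 for negative change. The log2 fold change of Ints7 itself was only 0.14, inside the quartiles of all genes, -0.33 to 0.26. With the other reading every direction below turns round.

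Most mitochondrial proteins are encoded in the nucleus, made in the cytosol and imported as precursors. The TOM complex is the common gate of the outer membrane, and the SAM complex inserts barrel-shaped proteins there. Precursors with a cleavable leader pass on through TIM23 of the inner membrane and are pulled into the matrix by the PAM motor, carrier proteins are inserted by TIM22, small TIM chaperones escort them across the intermembrane space, and the MIA relay folds small cysteine-rich proteins in that space. Dividing cells depend on import for respiration, for iron-sulfur cluster assembly and for the supply of metabolites. Symbols alone do not make a translocase subunit: Tomm34 encodes a cytosolic co-chaperone and Timmdc1 an assembly factor of respiratory complex I.

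Values of the import genes lay on both sides of 0 in every compartment. The 35 genes had a median log2 fold change of -0.045, from -1.12 for Tomm5 to 0.67 for Tomm7, and all 20380 genes had a median of -0.021 per the authors' deposited table. The standard deviation was 0.43 over the 35 import genes and 0.48 over all genes. Of the 35, 21 lay below 0, or 60.0%, against 52% of all genes. Below an unadjusted depletion p of 0.05 stood 3 import genes, Tomm40, Tomm5 and Timm23, or 8.57%, against 5.07% of all genes per the authors' deposited table. No import gene had an enrichment p under 0.05, where 5.02% of all genes did, and the lowest was 0.112 for Tomm7 per the authors' deposited table. No import gene passed a false discovery rate of 0.05 (MAGeCK, by the submitters' processing notes), a threshold that 0.00491% of all genes passed for depletion and 0% for enrichment per the authors' deposited table. Tomm40 came nearest, with 0.27 for depletion, while every other import gene was at 0.961 or above for depletion per the authors' deposited table. For enrichment the lowest false discovery rate of any import gene was 0.996 per the authors' deposited table. At a stricter p of 0.01, Tomm40 alone remained for depletion, against 1.12% of all genes, and none for enrichment, against 1.07%, per the authors' deposited table. The genes were proposed with results of this comparison known, so these counts describe them and test nothing about the group.

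**Figure D1:**
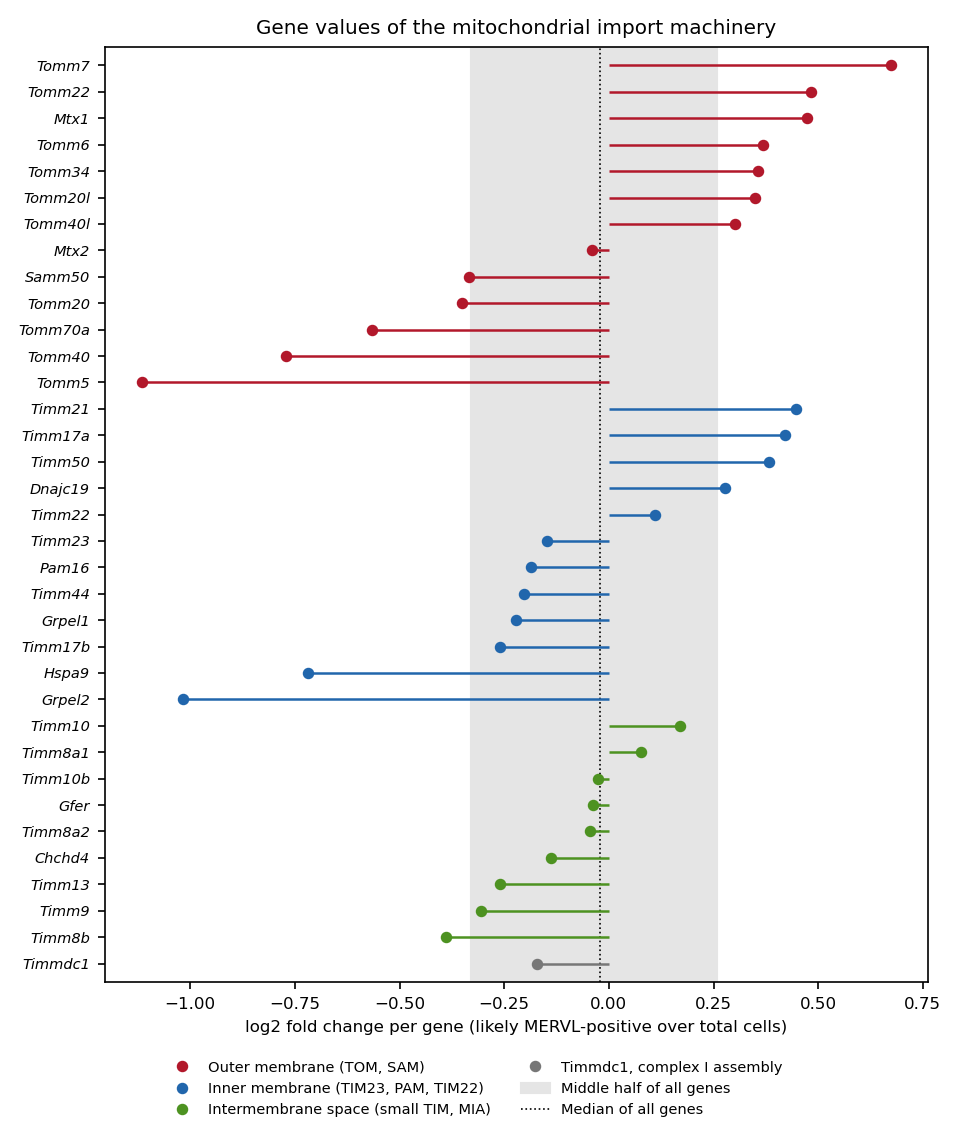
Log2 fold change of each of the 35 import genes from the authors' deposited table (x axis), grouped by compartment and sorted from high to low, with 1 value per gene and no error bar because no library values were used. The grey band spans the quartiles of all genes, -0.33 to 0.26. Outside it lie 12 of 13 outer-membrane genes, some only just, such as Samm50, and inside it lie 8 of 9 intermembrane-space genes.

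The table further gives, for each gene, how many guides were past a loose threshold in the positive direction (up) and in the negative direction (down). Among the 1112 entries with a single guide, a guide was counted down at a score of up to 37.9% and up at a score of up to 37.4% per the authors' deposited table. A guide past this threshold therefore need not have changed. Of the import genes, 28 had 6 guides and 7 had 5 per the authors' deposited table. Of their 203 guides, 38.9% were up and 34.5% down, against 37.4% up and 38.0% down among the guides of all genes per the authors' deposited table. These shares differ little from the background in either direction.

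Tomm40 forms the channel through which nearly all precursors cross the outer membrane. The mm10 position of the gene is chromosome 7, 19701313 to 19715442. The gene ranked 2 of 22510 for depletion per the authors' deposited table, with a p of 2.4e-05, a false discovery rate of 0.27 and a log2 fold change of -0.77 (ratio 0.586). Its guides were split evenly, with 3 down and 3 up, and none between per the authors' deposited table. The enrichment p of the same gene was 0.617 per the authors' deposited table. An even split of 6 guides was shared by Timm44 and Timm8a1, so it was found in 3 of 28 import genes with 6 guides, against 5.67% of all such genes per the authors' deposited table. If the score is MAGeCK's robust rank aggregation, which the headers do not state, the Tomm40 depletion score of 3.18e-06 cannot come from 1 guide, since the strongest place among 121918 guides is 0.00082% and 5.3e-05% would be needed. On that reading either 2 guides lay within the 0.0461% most depleted or 3 within the 0.544% most depleted. On the same reading the high rank of Tomm40 rests on 2 or 3 of its 3 guides down, while its other 3 guides were past the threshold in the opposite direction.

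Tomm5 is one of the small subunits that surround the channel and help its assembly. Located on chromosome 4 from 45105209 to 45108113, it had the lowest log2 fold change of the import genes, -1.12, a ratio of 0.462, per the authors' deposited table. None of the 6 Tomm5 guides was up and 5 were down per the authors' deposited table. Its depletion p was 0.0279, at rank 607 and a false discovery rate of 0.961, per the authors' deposited table. About 2.36% of all genes had a lower fold change. The other small subunits lay above 0. Tomm7, a small subunit that is also needed to hold the kinase PINK1 at damaged mitochondria, had the highest value of the import genes, 0.67, with 4 of 6 guides up and none down per the authors' deposited table (enrichment p = 0.112, rank 2330, chromosome 5 from 23838944 to 23844145). Tomm6, which in yeast stabilises the complex, had 0.37, also with 4 guides up and none down, per the authors' deposited table (enrichment p = 0.318). The 3 small subunits of one complex thus spanned the whole range of the import genes, and 2 of them did not pass an unadjusted p of 0.05 in either direction.

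The receptors of the TOM complex differed in sign. Tomm20, which recognises leader sequences, had a log2 fold change of -0.35 with 1 guide up and 2 down of 5 per the authors' deposited table (depletion p = 0.544, rank 12334, chromosome 8 from 126930664 to 126945921). Tomm70a, which docks cytosolic chaperones and receives carrier precursors, had -0.57 with no guide up and 3 down of 5 per the authors' deposited table (depletion p = 0.34). Tomm22, the central receptor that holds the complex together, had 0.48 with 3 guides up and 2 down of 5 per the authors' deposited table (enrichment p = 0.394). None of the 3 passed an unadjusted p of 0.05. The co-chaperone gene Tomm34 had 0.36 with 4 of 6 guides up and 1 down per the authors' deposited table (enrichment p = 0.288).

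In the SAM complex, Samm50 inserts barrel-shaped proteins and the metaxins Mtx1 and Mtx2 sit on its cytosolic side. Samm50 had a log2 fold change of -0.33, with 1 guide up and 3 down of 6, per the authors' deposited table (depletion p = 0.525). Mtx1 had 0.47, with 3 guides up and 1 down of 6, per the authors' deposited table (enrichment p = 0.13, rank 2717, chromosome 3 from 89209081 to 89213907). Mtx2 had -0.039, with 2 guides up and 1 down of 6, per the authors' deposited table (enrichment p = 0.454, rank 9801, chromosome 2 from 74825812 to 74876748). It was the 1 import gene whose fold change had the opposite sign to its excess of guides up over guides down.

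Timm23 forms, with Timm17 proteins, the inner-membrane pathway for precursors with a leader. The gene spans 32180166 to 32201891 of chromosome 14. Its depletion p was 0.0492, at rank 1058 and a false discovery rate of 0.975, yet its log2 fold change was only -0.15, a ratio of 0.903, per the authors' deposited table. No guide was up, 2 were down and 4 lay between per the authors' deposited table. With its score read as above, either the strongest guide lay at 0.215% or the second strongest at 3.05% of the guide ranking. On that reading the p of Timm23 rests on 1 or 2 guides. Its fold change lay inside the quartiles of all genes.

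The other TIM23 genes lay on both sides of 0. Timm21, which in yeast couples TIM23 to the TOM complex and to the respiratory chain, had the highest inner-membrane value, 0.45, with 3 guides up and 2 down of 6 per the authors' deposited table (enrichment p = 0.114, rank 2372, depletion p = 0.279). Timm50, the receptor that meets precursors on the far side of the outer membrane, had 0.38 with 3 guides up and 1 down of 6 per the authors' deposited table (enrichment p = 0.412). Timm17a had 0.42 with 4 of 5 guides up and none down per the authors' deposited table (enrichment p = 0.122, rank 2733, chromosome 1 from 135301535 to 135313737). Timm17b, the alternative form of Timm17a, had -0.26 with 2 guides up and 3 down of 6 per the authors' deposited table (depletion p = 0.394, rank 8378, chromosome X from 7899336 to 7907652). The 5 TIM23 genes had a median of 0.38.

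The PAM motor genes lay mostly below 0, with 5 of 6 there, against 52% of all genes, and a median of -0.21. Of the 5, Timm44, Pam16 and Grpel1 lay inside the quartiles of all genes. Hspa9, the matrix Hsp70 that pulls precursors in, had a log2 fold change of -0.72 with no guide up and 3 down of 5 per the authors' deposited table (depletion p = 0.188). Grpel2, a nucleotide exchange factor of Hspa9, had the lowest inner-membrane value, -1.02, a ratio of 0.494, with 1 guide up and 4 down of 5 per the authors' deposited table (depletion p = 0.0889, rank 2138). Grpel1, the other exchange factor, had -0.22 with 2 guides up and 2 down of 6 per the authors' deposited table (depletion p = 0.777, rank 17033).

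Around the chaperone sit Timm44, the scaffold that tethers it to the channel, and the pair of Dnajc19, which stimulates its ATPase, and Pam16, whose yeast counterpart restrains that of Dnajc19. Timm44 had a log2 fold change of -0.20 with 3 guides up and 3 down per the authors' deposited table. Pam16 had -0.19 with 2 guides up and 2 down of 6 per the authors' deposited table. Dnajc19 was the 1 motor gene above 0, at 0.28, with 3 of 5 guides up and none down per the authors' deposited table. None of the 6 motor genes passed an unadjusted p of 0.05 in either direction per the authors' deposited table. Timm22, the carrier translocase channel, had 0.11 with 3 guides up and 2 down of 6 per the authors' deposited table.

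The genes of the intermembrane space were the least spread. The 9 values lay from -0.39 to 0.17 with a standard deviation of 0.18, against 0.56 over the 13 outer-membrane genes and 0.45 over the 12 inner-membrane genes. Timm10, which forms a ring-shaped chaperone with Timm9, was the highest at 0.17, with 3 guides up and 1 down of 6 per the authors' deposited table (enrichment p = 0.571, rank 12273, chromosome 2 from 84827021 to 84830213). Timm9 had -0.30 with 2 guides up and 3 down of 6 per the authors' deposited table. Timm8b was the lowest at -0.39, with 2 guides up and 3 down of 6 per the authors' deposited table (depletion p = 0.407, rank 8679, chromosome 9 from 50603901 to 50605320). Timm13, the ring partner of the Timm8 proteins, had -0.26 with 2 guides up and 3 down of 6 per the authors' deposited table.

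Timm10b, which links the small chaperones to the TIM22 channel, had -0.025 with 2 guides up and 2 down of 6 per the authors' deposited table (depletion p = 0.795, rank 17407, chromosome 7 from 105640445 to 105655748). Timm8a1, whose human counterpart is mutated in a deafness and dystonia syndrome, had 0.076 with 3 guides up and 3 down per the authors' deposited table (enrichment p = 0.359, rank 7640, chromosome X from 134537256 to 134541670). Its relative Timm8a2 had -0.045 with 1 guide up and 2 down of 6 per the authors' deposited table (depletion p = 0.833, rank 18258, chromosome 14 from 122027677 to 122038422). In the MIA relay, the oxidoreductase Chchd4 had -0.14 and the oxidase Gfer, which recharges it, had -0.037, each with 2 guides up and 2 down of 6, per the authors' deposited table. Gfer had the lower depletion p of the pair, 0.105 against 0.745 for Chchd4, although its fold change was nearer to 0 per the authors' deposited table. All 9 genes of the intermembrane space had at least 1 guide up and 1 down, as most genes did. Of all genes with 5 or 6 guides, 6.56% had no guide up and 6.42% had no guide down per the authors' deposited table. Timmdc1 had -0.17 with 2 guides up and 2 down of 6 per the authors' deposited table.

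**Figure D2:**
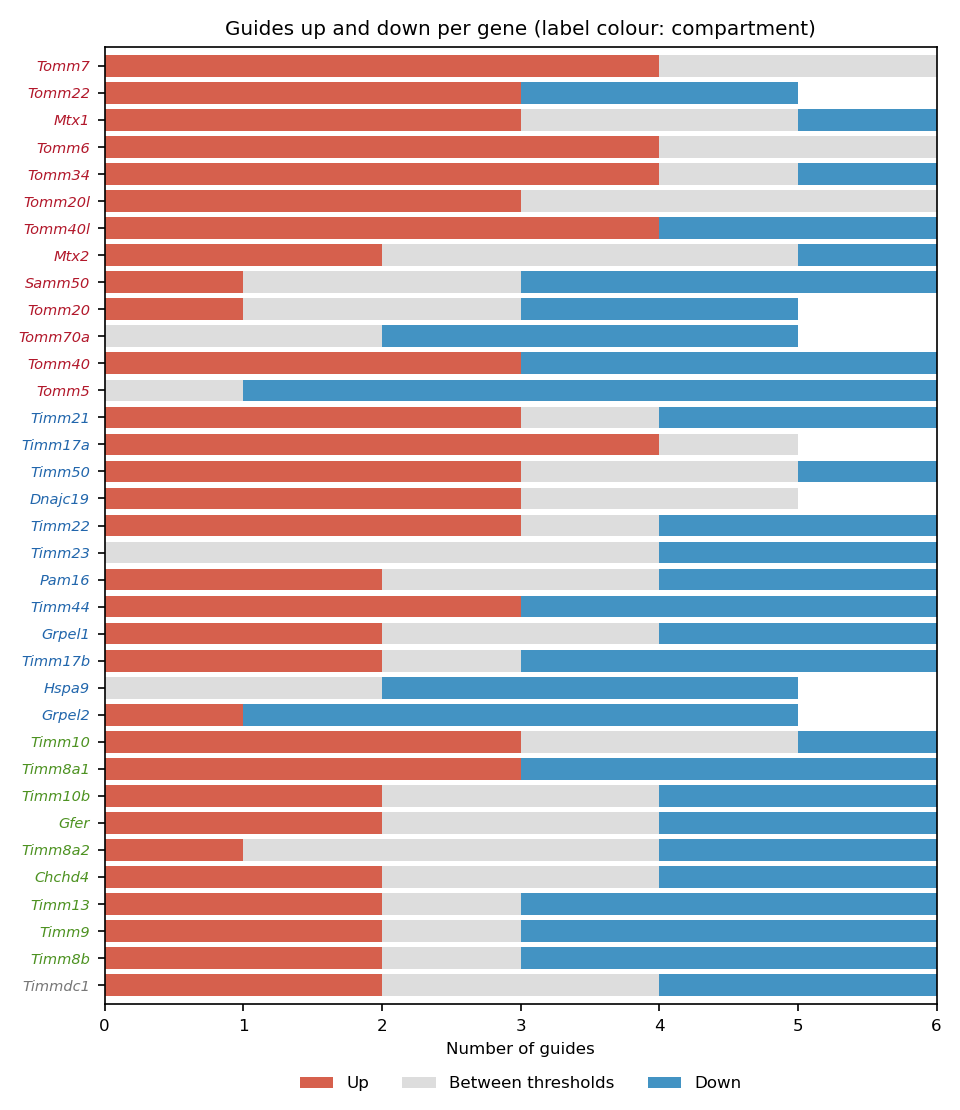
Number of guides per import gene (x axis) that were up (red), between the thresholds (grey) or down (blue) per the authors' deposited table, in the same gene order as the plot of gene values. Tomm40, Timm44 and Timm8a1 show 3 guides each way, and Tomm5 shows 5 down and none up.

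Outer-membrane genes had a higher median than inner-membrane genes, a difference that changed with the summary used and the genes counted. The median log2 fold change was 0.30 over the 13 TOM and SAM genes and -0.17 over the 12 TIM23, PAM and TIM22 genes. The 13 include Tomm34, which was counted with TOM although it encodes a cytosolic co-chaperone. The difference of medians was 0.47, and 0.30 to 0.49 when each gene was left out in turn, a range that is no measure of error. The means were -0.013 in the outer and -0.093 in the inner membrane, a difference of 0.080. Without Tomm34, Tomm20l and Tomm40l, the outer-membrane median was -0.19 and the difference -0.020. Above 0 were 7 of 13 outer-membrane and 5 of 12 inner-membrane genes, against 48% of all genes. Of the guides, 42.7% were up and 30.7% down in the outer membrane, against 38.2% up and 35.3% down in the inner membrane, per the authors' deposited table. An unadjusted depletion p under 0.05 was held by 2 outer-membrane genes, Tomm40 and Tomm5, and 1 inner-membrane gene, Timm23, which is 15.4% of 13 and 8.33% of 12, against 5.07% of all genes per the authors' deposited table. The compartments overlapped over nearly their whole ranges, -1.12 to 0.67 for the outer and -1.02 to 0.45 for the inner membrane. The difference was not tested, since genes are not replicates and the libraries have no separate values.

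The compartments were also described by how many genes lay outside the quartiles of all genes, where 50% of all genes lie by definition. Of the 13 outer-membrane genes, 12 lay outside, with 5 below -0.33 and 7 above 0.26. Some only just crossed an edge, such as Samm50 at -0.333 against -0.329, and Tomm20, at -0.35, and Tomm40l, at 0.30, were also near. Beyond -0.5 or 0.5 lay Tomm5, Tomm40, Tomm70a and Tomm7 of the outer membrane and Grpel2 and Hspa9 of the inner membrane. All 10 genes of the TOM list lay outside the quartiles, 4 below and 6 above, and the 6 include Tomm34, Tomm20l and Tomm40l. Without these 3, a choice made after the values were seen, the other 7 TOM genes were 4 below and 3 above. In the inner membrane 6 of 12 lay outside, and in the intermembrane space 1 of 9, Timm8b. This pattern was noticed after the values were seen and carries no test.

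**Figure D3:**
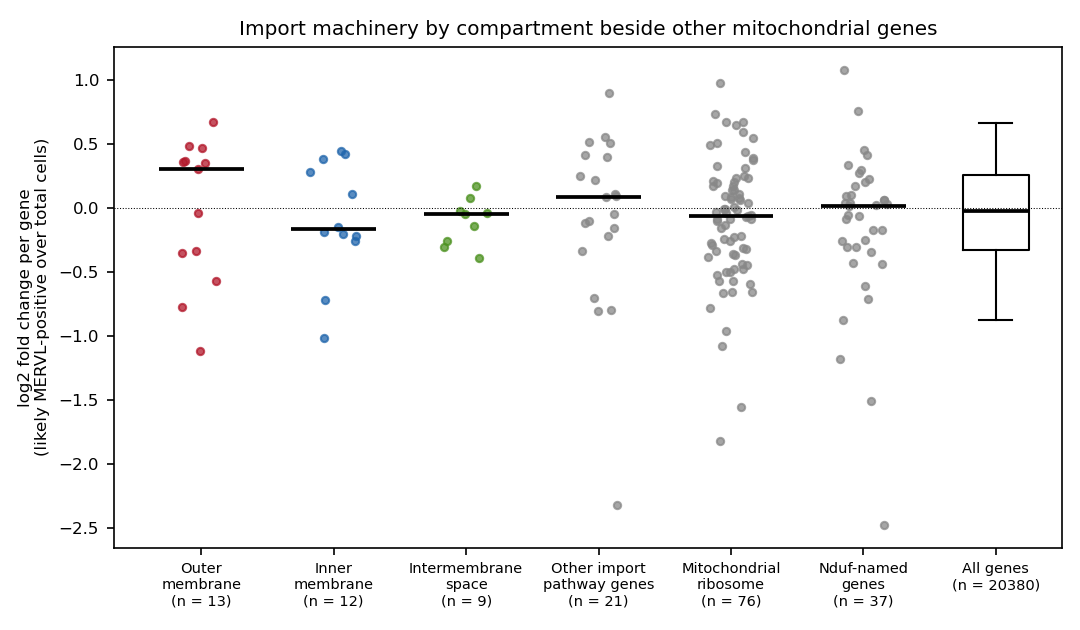
Log2 fold change per gene from the authors' deposited table (y axis) for each compartment of the import machinery, for other import pathway genes, mitochondrial ribosomal proteins and Nduf-named genes, mostly complex I subunits, with 1 point per gene and a bar at the median. The box for all genes shows the quartiles and its whiskers the central 90% of genes; 7 outer-membrane points lie at 0.30 or above, 5 at -0.33 or below and Mtx2 at -0.039, and the intermembrane-space points stay between -0.39 and 0.17.

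Several import genes belong to families of like proteins, and relatives had values of the same or of opposite sign. With 48% of all genes above 0, opposite signs are common between any pair of genes. Mtx2, Timm10b, Timm8a1 and Timm8a2 also lay near 0, where the sign carries little. Tomm40l, a relative of the channel Tomm40, had 0.30 with 4 guides up and 2 down of 6 per the authors' deposited table (enrichment p = 0.332, rank 7025, chromosome 1 from 171217802 to 171222514). Tomm40 lay below it by -1.07 on the log2 scale. Tomm20l, a relative of the receptor Tomm20, had 0.35 with 3 of 6 guides up and none down per the authors' deposited table (enrichment p = 0.129, rank 2705, chromosome 12 from 71111428 to 71123222). Tomm20 lay below it by -0.70. Timm17a lay above Timm17b by 0.68, Grpel1 above Grpel2 by 0.80 and Mtx1 above Mtx2 by 0.51. Smaller differences were found in the small TIM families, 0.20 between Timm10 and Timm10b and 0.12 between Timm8a1 and Timm8a2. Timm8b lay lower than both Timm8 relatives, which exceeded it by 0.47 for Timm8a1 and 0.34 for Timm8a2. Of these genes only Tomm40 passed an unadjusted p of 0.05 per the authors' deposited table, and the differences carry no test. Guides against close relatives can cut more than one of them, which could not be looked at without guide sequences.

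Some import genes had no guide in one direction. No guide was up for Tomm5, Tomm70a, Timm23 and Hspa9, 4 of 35 or 11.4%, against 6.56% of all genes with 5 or 6 guides per the authors' deposited table. No guide was down for Tomm7, Tomm6, Tomm20l, Timm17a and Dnajc19, 5 of 35 or 14.3%, against 6.42% per the authors' deposited table. The other 26 of 35 had guides in both directions, which restates these counts, and no import gene had all of its guides up or all of them down, per the authors' deposited table. Shares over all genes were not computed for guides in both directions or for all guides in one. A log2 fold change below -0.5 was held by 5 import genes, against 15.4% of all genes, and one above 0.5 by Tomm7 alone, against 10.4%, per the authors' deposited table. Tomm5, Grpel2, Tomm40, Hspa9 and Tomm70a make up the low group.

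**Figure D4:**
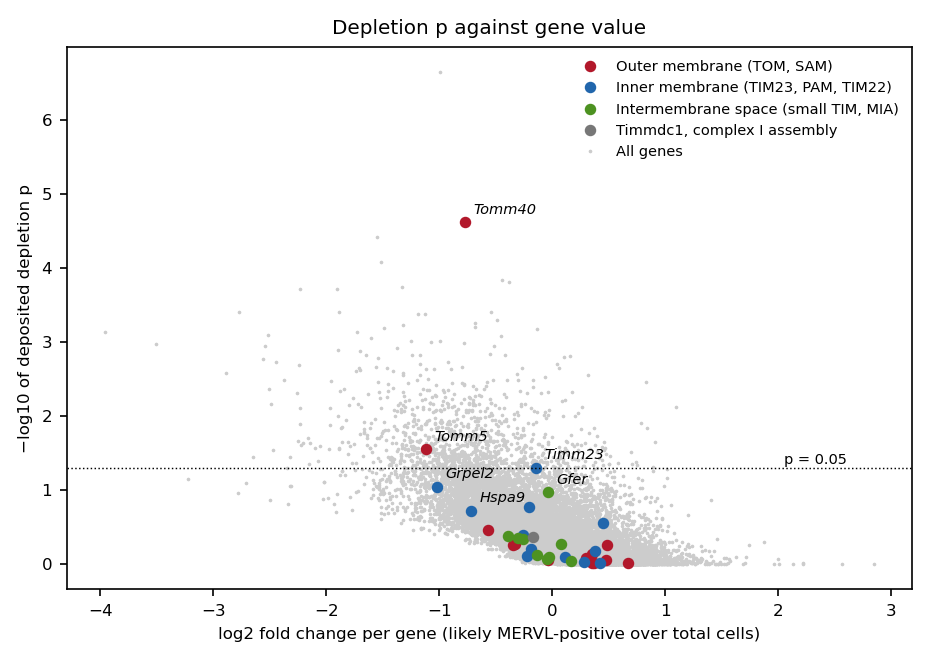
The -log10 of the depletion p (y axis) against the log2 fold change (x axis) per the authors' deposited table, with import genes coloured by compartment over all genes in grey and a dotted line at a p of 0.05. Tomm40 stands far above the other import genes, Tomm5 lies lower but further left at -1.12, and Timm23 lies on the line near a fold change of 0.

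The genes on both sides of the 3 import genes with a depletion p under 0.05 were looked at after the values were seen. Tomm40 lies 2 bases from Apoe and 1201 bases from Nectin2, listed as Pvrl2. Apoe, which encodes a lipid carrier, had a log2 fold change of -0.19 and a depletion p of 0.766, and Pvrl2, an adhesion receptor, had 0.32 and 0.649, per the authors' deposited table. The genes next to Tomm5 are further off, Fbxo10 at 20604 bases and Frmpd1 at 76306 bases. Fbxo10 had 0.37 with an enrichment p of 0.0185 and Frmpd1 had -0.20 with a depletion p of 0.127 per the authors' deposited table. None of these 4 neighbours had a depletion p under 0.05.

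Timm23 stood beside a gene with a lower value than its own. Parg, which encodes the enzyme that removes poly(ADP-ribose) chains, lies on chromosome 14 from 32201930 to 32298714 and is read away from Timm23 on the opposite strand. It had a log2 fold change of -1.33, with no guide up and 5 of 6 down, a depletion p of 0.039 and, after adjustment, a false discovery rate of 0.975 per the authors' deposited table. Ncoa4, on the other side, had -0.44 with 1 guide up and 4 down of 6 and a depletion p of 0.25 per the authors' deposited table. Both genes that flank Timm23 thus had lower fold changes than Timm23. The annotated genes Timm23 and Parg are parted by 38 bases on GRCm38.p6, which has the coordinates of mm10. The stretch, chr14:32201892-32201929, is shown from the RefSeq promoter table on the minus strand, 5′ to 3′ in the reading direction of Timm23, because it is all that separates the annotated starts of this pair.

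Timm23-Parg gap: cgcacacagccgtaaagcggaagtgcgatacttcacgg

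Close neighbours with starts on the opposite strand were found at other import genes too. Of 29 import genes with a position and strand in the RefSeq tables, 9 had the start of another protein-coding gene within 1000 bases, all on the opposite strand. The share over all genes was not computed, so the count says nothing particular to import genes. Chchd4 had -0.14 and Tmem43, 284 bases away, -0.49 with 1 guide up and 4 down of 6 and a depletion p of 0.0825 per the authors' deposited table. Timm8b had -0.39 and Sdhd, a subunit of respiratory complex II whose start lies 52 bases away, 0.065 per the authors' deposited table. Timm17b had -0.26 and Pqbp1, 67 bases away, 0.49 per the authors' deposited table. Timm10b had -0.025 and Arfip2, 29 bases away, -0.22 per the authors' deposited table. Of the 9 pairs, Timm23 and Parg alone had depletion p-values under 0.05 on both sides. No other pair could, because Timm23 was the only import gene of the 9 below that threshold. Gfer came next, with 0.105. On chromosome 12 the ends of Tomm20l and Timm9 overlap by 51 bases, and their values were 0.35 and -0.30 per the authors' deposited table.

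Other genes that act in import or just after it showed a like mixture. A list of 21 such genes had a median log2 fold change of 0.083, with 11 above 0 and 10 below, and none had an unadjusted p under 0.05 in either direction, against 5.07% of all genes for depletion and 5.02% for enrichment, per the authors' deposited table. Xpnpep3, a peptidase that trims imported proteins, had the lowest value, -2.32, with 2 guides up and 3 down of 5 and a depletion p of 0.0871 per the authors' deposited table. Hspe1, the co-chaperonin of the matrix, had the highest, 0.90, with 3 of 5 guides up and none down and an enrichment p of 0.124 per the authors' deposited table. The subunits of the peptidase that removes leader sequences differed, with -0.80 for Pmpca and 0.25 for Pmpcb per the authors' deposited table. Romo1, a small subunit of TIM23, had -0.80, and the inner-membrane insertase Oxa1l had -0.70, per the authors' deposited table. Timm29, a subunit of TIM22 that the rule missed because it is listed as 1810026J23Rik, had 0.40 per the authors' deposited table. Mtch2, an outer-membrane insertase, had the lowest enrichment p of the list, 0.0503, at 0.41 per the authors' deposited table.

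Beside other mitochondrial gene sets the import genes did not stand out by their centre. The median was -0.045 for the 35 import genes, -0.062 for 76 genes of the mitochondrial ribosome and 0.016 for 37 Nduf-named genes, most of which encode subunits of complex I, per the authors' deposited table. An unadjusted depletion p under 0.05 was held by 8.57% of import genes, 6.58% of mitochondrial ribosomal protein genes and 5.41% of Nduf-named genes per the authors' deposited table. For enrichment the shares were 0% of import genes, 6.58% of mitochondrial ribosomal protein genes and 8.11% of Nduf-named genes per the authors' deposited table. The Nduf names include Ndufa4 and Ndufa4l2, which are not complex I subunits, and without them, a choice made after the values were seen, the other 35 genes had a median of 0.027, with 2.86% past the depletion and 8.57% past the enrichment threshold per the authors' deposited table. The single non-targeting guides had a median of 0.019 and a standard deviation of 0.770, which shows how far single guides without a target ranged. None of these differences between lists was tested.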

How the data were processed

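The 4 libraries, 2 from MERVL-positive and 2 from total cells, were compared by the authors in 1 gene table. The submitters' processing notes name MAGeCK and mm10; version, settings, normalization and numerator were not given in the sources used. Per the file headers, the authors deposited for each of 22510 entries a score, p-value and false discovery rate in each direction, a log2 fold change (identical in both columns), ranks and guide numbers. Depth per library is unknown. Entries comprise 20380 genes, 1132 microRNAs and 998 non-targeting guides. The authors' p-values were used as deposited, with a threshold of 0.05, and no model was fitted. They may measure technical spread alone.

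Medians, counts and shares were computed with pandas 2.3.3 under Python 3.11.15 and tested on simulated data. Positions came from RefSeq (GRCm38.p6), where 33 of 35 genes had one. Genes, lists and naming rules were chosen with earlier results of these data known. All 35 genes are named, with more values for those past an unadjusted p of 0.05, class extremes and family pairs. Not every position and false discovery rate foreseen for these genes is given. Protein identities foreseen for the family pairs were not computed. Alternatives changed the summary, zero point, guide minimum, membership, threshold and measure.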

Additional observations from a re-analysis of the deposited data

How the results depend on the processing

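All medians are of log2 fold changes. With the mean in place of the median, the 35 import genes had -0.069 (main value -0.045), the outer membrane -0.013, which turned its sign, the inner membrane -0.093, and their difference was 0.080. Minus the median of all genes, the values were -0.024, 0.32 and -0.15, and minus that of the non-targeting guides -0.064, 0.28 and -0.18. With 6-guide genes alone or without Tomm40, the outer membrane had 0.32 and the difference was 0.49. Without Tomm34, Timmdc1, Tomm20l, Tomm40l and Timm8a2, all genes of the machinery had -0.14, and the outer membrane, at -0.19, and the difference, at -0.020, turned their signs. By median enrichment rank percentile, where 50 is the middle of all genes and a lower value means more enriched, the import genes stood at 55.6, the outer membrane at 40.4 and the inner membrane at 47.7, on the enriched side and so turned in direction. The difference of -7.35 keeps the outer membrane as the more enriched. Alternatives chosen after seeing the data gave an outer membrane median of 0.32 without Tomm5, an inner membrane median of -0.15 without Grpel2 or with Timm29, and a difference of 0.45 with Timm29. The count with a depletion p under 0.05 was 3, was 1 at 0.01, against 1.12% of all genes, and was 0 at a false discovery rate of 0.05 as computed by MAGeCK. The enrichment count was 0 throughout. All 70 single-gene values under other zero points kept their sign. This was fixed in advance, since the largest shift was 0.021 and the import gene nearest to 0, Timm10b, had -0.025. The cause of these changes was not tested, beyond the genes each setting leaves out. No paired analysis was possible because the table holds no value per library, and no library could be left out for the same reason. Depth and sorted cells per guide limit what an uncalled gene can show.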
